A study of Aedes albopictus with 6 samples.

Results

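Intergenic circular RNAs (circRNAs) of the Asian tiger mosquito, Aedes albopictus, are described here: back-splice junctions both of whose ends the authors' table places outside any annotated gene on that strand. They were taken from the deposited count table, after its repeated lines were collapsed to 1 entry per contig, start, end and strand, as all entries with the junction type intergenic at both ends. There were 528 of them among 8690 circRNAs (6.08%). They held 4556 of 121044 back-splice junction reads (3.76%). The libraries came from whole bodies of the Foshan laboratory strain, virgin females in 1 group and males of the same age in the other, both 2 days old. Each sex had 3 pools of 30 mosquitoes. Ribosomal RNA had been removed and linear RNA digested with RNase R, an exonuclease that degrades linear RNA and leaves closed circles. Female libraries held 13322 to 17197 junction reads and male libraries 21624 to 27257. Each library is a pool of whole animals, so fewer cells of a type and less RNA per cell cannot be told apart. The table counts junction reads only, and the sex labels were not checked against marker transcripts here.

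A circRNA forms when the spliceosome joins the end of an exon back to the start of the same or an earlier exon, and the closed product, with no free end, resists exonucleases. Most circRNAs studied in insects come from exons of protein-coding genes, many of them expressed in the nervous system. A junction called intergenic has ends that meet no annotated gene on that strand, so the class depends on the annotation as well as on the transcripts. The genome of this mosquito is large and rich in transposable elements, and its assembly is divided into many contigs. Positions are contig coordinates as the table prints them. The sources used here do not give the assembly and annotation behind them, and the table names neither a gene nor a function for most of these circRNAs.

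A single intergenic circRNA passed the test of sex, and it was higher in males. It lies on contig NW_021838925.1 (114126 to 114445, plus strand), spans 319 bases, and was the intergenic circRNA of most reads. It had 20, 19 and 30 reads in the 3 female libraries and 76, 127 and 114 in the 3 male libraries. The lowest male library stood well above the highest female one. Per 10000 reads of the TMM-scaled library, a measure that corrects for depth and composition, its level was 15.1 ± 5.99 in females and 42.5 ± 8.04 in males (SD, n = 3 each). The log2 fold change of female over male was -1.51 (SE 0.28, edgeR quasi-likelihood test, adjusted p = 0.000143), a level 2.85-fold higher in males. The call was kept without each library in turn, with log2 fold changes of -1.83 to -1.33 and adjusted p from 0.000282 to 0.0128. A second circRNA on this contig ends at the same position and starts further upstream (105326 to 114445, span 9119 bases). It had 7, 0 and 0 reads in females and 10, 1 and 15 in males, and these values overlap (edgeR adjusted p = 0.552, log2 fold change -1.22 with SE 1.05). The nearest host gene listed on the contig, LOC115253552, begins or ends 73774 bases away.

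The test covered 738 circRNAs of all junction types, of which 21 were intergenic, or 3.98% of the 528. The other intergenic circRNAs had too few reads or reads in too few libraries. Among all those tested, 6.64% were called, 3.79% as higher in females and 2.85% as higher in males. Of the 21 intergenic circRNAs, 0 were called for females and 1 for males. At an unadjusted p under 0.05 the counts were 0 and 5, against 9.62% and 10% of all tested. DESeq2 gave the same 0 and 1 calls. The log2 fold change was above 0 for 7 and below 0 for 14 of the 21, with a median of -0.57, and the median over all 738 was -0.01. The libraries of the sexes did not overlap for 1 intergenic circRNA with females above and 5 with males above, against 12.1% and 14.9% of all tested. Only circRNAs with enough reads in at least 3 libraries, of whichever sex, could enter. A circRNA can meet this through the sex where it is higher, so the 21 do not stand for the class.

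Behind the leading circRNA, 3 others had 251 reads or more and did not differ past the threshold. On NW_021838154.1 (3354210 to 3354500, plus strand), a 290-base circRNA had 65, 55 and 25 reads in females and 67, 78 and 58 in males. Its levels, 30.1 ± 10.9 in females and 27.8 ± 5.87 in males, overlapped (log2 fold change 0.13, SE 0.27, edgeR adjusted p = 0.833). On NW_021838532.1 (6541 to 6830, minus strand), a 289-base circRNA had 48, 53 and 31 reads in females and 58, 73 and 60 in males. Its levels overlapped as well, at 27.7 ± 4.37 in females and 25.99 ± 3.88 in males (adjusted p = 0.859). The fourth, on NW_021838721.1 (4063927 to 4066195, minus strand, 2268 bases), had 18, 37 and 18 reads in females and 51, 64 and 63 in males. At 15.3 ± 5.56 in females and 24.1 ± 1.51 in males its sexes did not overlap, but it missed the threshold (log2 fold change -0.64, SE 0.32, edgeR adjusted p = 0.245). Together these 4 circRNAs held 28.7% of the intergenic reads, and the next had 84 reads.

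**Figure D1:**
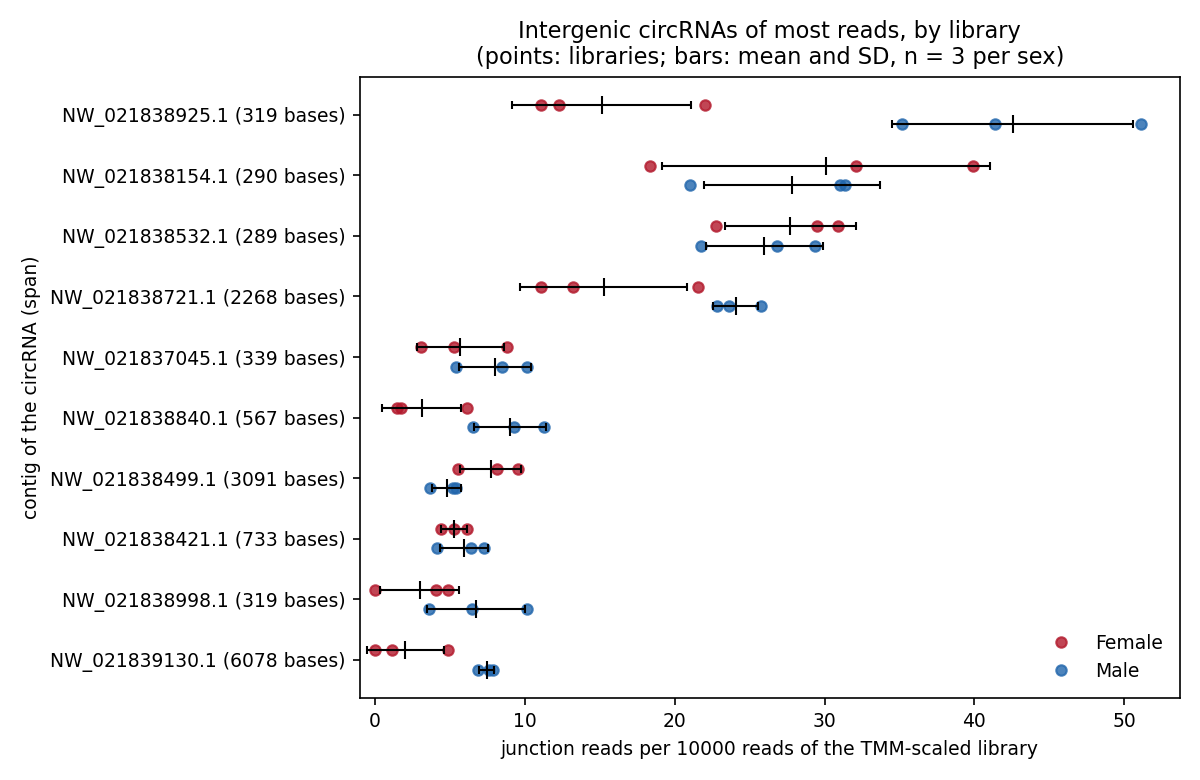
Levels of the 10 intergenic circRNAs of most reads, in junction reads per 10000 reads of the TMM-scaled library on the x axis. Rows are circRNAs labelled by contig and span, points are single libraries (female above male in each row), and bars give the mean and SD (n = 3 per sex). The NW_021838925.1 circRNA has all 3 male libraries at 35.2 or more and all 3 female libraries at 22.0031 or less, while those on NW_021838154.1 and NW_021838532.1 overlap.

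Other circRNAs had all male libraries above all female ones and missed the threshold. A 608-base circRNA on NW_021838153.1 (105466498 to 105467106, minus strand) had 0, 3 and 3 reads in females and 11, 15 and 23 in males, with levels of 1.32 ± 1.16 and 6.49 ± 1.67. Its log2 fold change was -2.29 (SE 0.80, edgeR adjusted p = 0.0638, and 0.0695 to 0.310 with 1 library left out). A circRNA spanning 6078 bases on NW_021839130.1 (36625885 to 36631963, plus strand) had 8, 2 and 0 reads in females and 17, 19 and 19 in males (edgeR adjusted p = 0.104, log2 fold change -1.80 with SE 0.70). Another, of 567 bases on NW_021838840.1 (178873 to 179440, plus strand), had 10, 3 and 2 reads in females and 20, 28 and 18 in males (edgeR adjusted p = 0.129, log2 fold change -1.49 with SE 0.61). The values of these last 2 circRNAs moved with female replicate 1. Without it the log2 fold changes were -3.41 and -2.42, with edgeR adjusted p of 0.0118 and 0.0261. With any other library left out, both missed the threshold. The edgeR adjusted p was then 0.243 to 0.325 on NW_021839130.1 and 0.215 to 0.428 on NW_021838840.1. No host gene is listed on the contig NW_021838840.1. Each of these 3 circRNAs met the minimum count of the test in all 3 male libraries but not in all female ones. Their entry into the test thus rested on the sex with the higher level.

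In 1 of the 21 tested intergenic circRNAs all female libraries stood above all male ones after scaling, against 12.1% of all 738 tested. This circRNA, on NW_021838499.1 (7655889 to 7658980, plus strand, 3091 bases), had 9, 14 and 13 reads in females and 8, 13 and 15 in males. After scaling, its levels of 7.74 ± 2.04 in females and 4.79 ± 0.95 in males did not overlap, and it missed the threshold (edgeR adjusted p = 0.552, log2 fold change 0.67 with SE 0.56). Such separation was not counted over all circRNAs listed. An example outside the test, on NW_021837290.1 (693119 to 693840, plus strand, 721 bases), had 11, 1 and 6 reads in females and 0, 0 and 1 in males. It did not pass the filter and was not tested, and its levels were 3.91 ± 3.11 in females and 0.12 ± 0.21 in males (SD, n = 3 each).

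The remaining circRNAs among the 10 of most reads or of smallest p had overlapping sexes. On NW_021837045.1 (81165734 to 81166073, plus strand) the counts were 5, 9 and 12 in females and 22, 21 and 15 in males. On NW_021838421.1 (3579655 to 3580388, minus strand) they were 10, 9 and 6 in females and 9, 16 and 20 in males. A circRNA on NW_021838998.1 (1007330 to 1007649, plus strand) had 8, 7 and 0 reads in females and 14, 9 and 28 in males. It has the same span as the leading circRNA, 319 bases, a span shared by 4 intergenic circRNAs on different contigs. With 7, 5 and 10 female reads and 9, 2 and 7 male reads, the circRNA on NW_021838798.1 (30932095 to 30932991, minus strand) had a log2 fold change of 0.94. The circRNA on NW_021838576.1 (107095935 to 107097083, plus strand) had 5, 0 and 2 reads in females and 4, 11 and 11 in males, and its log2 fold change was -1.17. Adjusted p by edgeR for these 5 ran from 0.358 on NW_021838998.1 to 0.887 on NW_021838421.1.

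As a class, intergenic circRNAs took a smaller share of junction reads in females than in males. The share was 3.53%, 3.13% and 3.23% in the female libraries and 4.06%, 4.13% and 3.999% in the male libraries, so the sexes did not overlap. The means were 3.30% ± 0.208 in females and 4.06% ± 0.067 in males (SD, n = 3 each), a female minus male difference of -0.76 percentage points. An exact permutation test, two-sided, gave p = 0.1, the smallest that 3 against 3 libraries allow, so this design cannot pass 0.05. Without the circRNA called above the difference was -0.50 points, and without the 5 intergenic circRNAs of most reads it was -0.43 points (exact permutation p = 0.1 for each). Intron-intron circRNAs, a class of like size, took 3.76% ± 0.175 in females and 3.78% ± 0.0724 in males (difference -0.02 points, exact permutation p = 0.9). Exon-exon circRNAs took 90.4% ± 0.261 in females and 89.7% ± 0.204 in males, also without overlap (difference 0.65 points, exact permutation p = 0.1). Shares of a whole are not independent, since a larger share of 1 class leaves less for the others. Whether the sex difference itself differs between these classes was not tested. Male libraries were deeper, and the part of depth in the difference was not tested. From the library of fewest to that of most junction reads, the share was 3.23%, 3.53% and 3.13% in females and 4.06%, 4.13% and 3.999% in males.

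**Figure D2:**
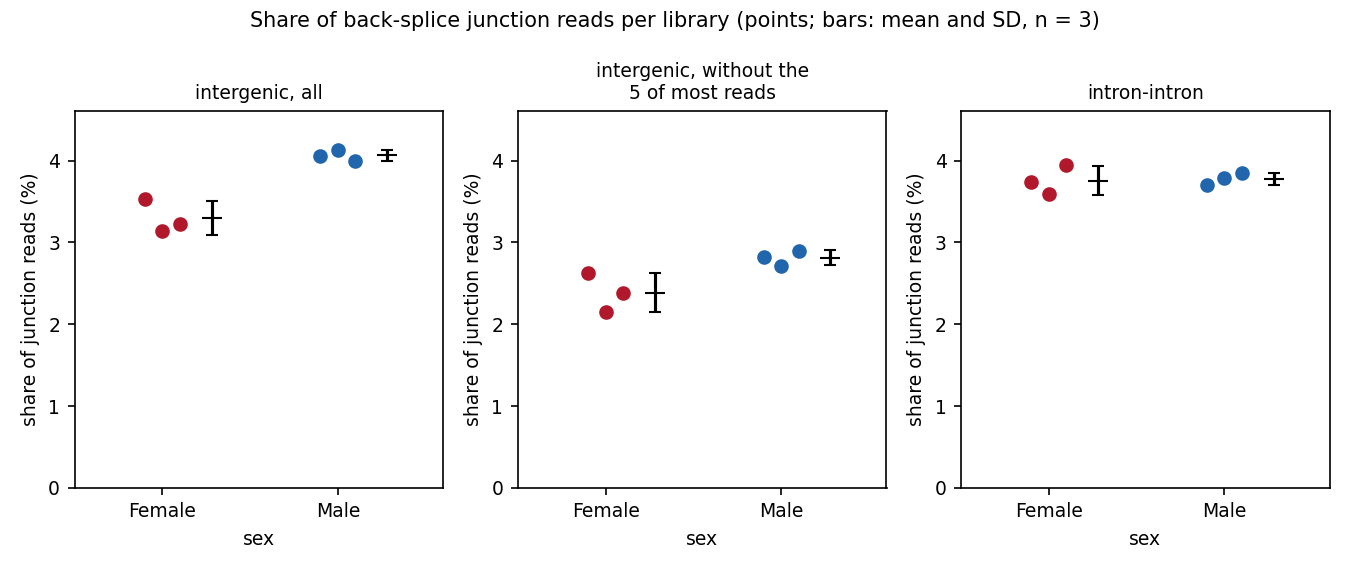
Share of back-splice junction reads, in percent on the y axis, by sex on the x axis. Points are libraries and bars the mean and SD (n = 3 per sex), for intergenic circRNAs, for intergenic circRNAs without the 5 of most reads, and for intron-intron circRNAs. Female points lie below all male points in the first 2 panels and overlap them in the intron-intron panel.

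More intergenic circRNAs were listed for males, and at equal depth the numbers with at least 2 reads overlapped. At least 2 reads were found for 115, 110 and 99 in females and 162, 160 and 172 in males. With every library thinned to the 13322 reads of the smallest, the expected numbers were 94.6, 85.1 and 99.0 in females and 104, 90.1 and 91.2 in males. The thinned difference was -2.21 (exact permutation p = 0.7, two-sided, n = 3 each). At a minimum of 1 read the thinned numbers were 123 ± 6.18 in females and 164 ± 5.38 in males, without overlap (exact permutation p = 0.1). A circRNA entered the table only with at least 2 reads in some library, a condition that deeper libraries meet more often, and the part of that condition in the 1-read difference was not tested.

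Many intergenic circRNAs were seen in 1 sex only. Reads came from female libraries alone for 151 (28.6%, against 19.3% of all circRNAs listed), from male libraries alone for 241 (45.6%, against 37.6%), and from both sexes for 136. Most of these had few reads, with medians of 2 for the female-only and 3 for the male-only. Of the female-only ones 143, and of the male-only ones 192, had reads in 1 library, where no more than 1 sex can be seen. In 2 or more libraries there were 8 female-only and 49 male-only ones. Shares seen in 1 sex were not compared with the whole table at like numbers of libraries. None of the female-only ones had reads in all 3 female libraries (0.173% of all circRNAs listed did), whereas 16 male-only ones had reads in all 3 male libraries (3.03%, against 2.8% of all listed). The share of 3.03% is thus close to that of the whole table. None of these 392 circRNAs passed the filter for the sex test.

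The male-only circRNAs of most reads were a span of 83662 bases on NW_021838423.1 (48876 to 132538, minus strand) with 4, 6 and 12 reads, and a span of 500 bases on NW_021838687.1 (25343401 to 25343901, minus strand) with 5, 6 and 10. With the female libraries set at a floor of 3 reads in sum, their male levels were 4.66 and 4.45 times that floor. These ratios take the male reads as counted and leave out variation between replicates, so they are not lower bounds. The circRNAs were chosen for having no female read. The next, on NW_021838949.1 (109466 to 115992, minus strand), had 6, 5 and 7 reads (3.81 times the floor). It shares its end with a male-only circRNA of shorter span (115761 to 115992), which had 1, 3 and 1 reads. Summed as 1 locus, this pair had an edgeR adjusted p of 0.0579. Without a female read, the pair could enter that test through the male libraries only. Among circRNAs without a male read that were seen in 2 or more libraries, those of most reads were a 437-base span on NW_021837501.1 (1249040 to 1249477, minus strand) with 2, 7 and 0 reads, a 1135-base span on NW_021837634.1 (1164289 to 1165424, minus strand) with 2, 0 and 7, and a 541-base span on NW_021838466.1 (8380540 to 8381081, plus strand) with 3, 0 and 3. Each was missing from 1 female library. A 729-base circRNA on NW_021838687.1 (72348765 to 72349494, minus strand) also had 9 reads, all in female replicate 1.

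Intergenic circRNAs recurred less across libraries than exon-exon circRNAs. Of the 528, 335 (63.4%) had reads in 1 library, whereas 41.0006% of 7156 exon-exon and 45.97% of 533 intron-intron circRNAs did. Reads in all 6 libraries were found for 21 intergenic (3.98%) and for 793 exon-exon circRNAs (11.1%). Those 21 held 44.1% of the intergenic reads. The circRNAs seen once were spread over all libraries: 47, 47 and 49 in the 3 female libraries and 58, 65 and 69 in the 3 male ones. Most of them, 206, were listed on 2 reads. A circRNA entered the table only with at least 2 reads in some library, so these 206 could not recur. The same holds for 1653 exon-exon and 145 intron-intron circRNAs listed on 2 reads. No intergenic circRNA seen in 1 library had more than 9 reads.

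Among circRNAs with at least 2 reads in a library, 58.4% ± 4.49 of intergenic ones had a read in another library, against 80.5% ± 1.04 of exon-exon ones (SD over 6 libraries). The difference was -22.1 ± 4.83 percentage points and had the same sign in 6 of 6 libraries (exact sign-flip permutation test, two-sided, p = 0.031, the smallest that 6 libraries allow). The libraries hold many of the same circRNAs, so this test covers libraries and not circRNAs. With 2 to 4 reads in the library the difference was -23.3 points, and with at least 5 reads -4.99 points (exact permutation p = 0.0625). With 3 to 4 reads over all libraries, 30.4% of 161 intergenic circRNAs were found in 2 or more, against 47.3% of 169 intron-intron and 45.8% of 1954 exon-exon circRNAs. With 5 to 9 reads the shares were 79.8%, 89.0% and 85.9%. From 10 reads on, every intergenic circRNA was found in at least 2 libraries.

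**Figure D3:**
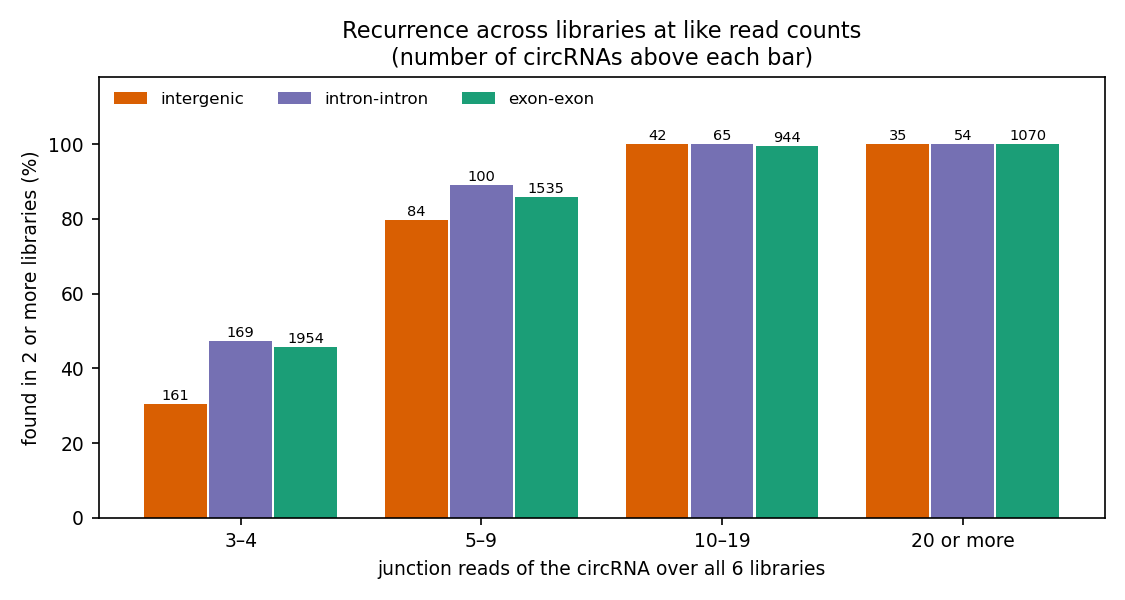
Percent of circRNAs found in 2 or more libraries (y axis) by their junction reads over all 6 libraries (x axis), for intergenic, intron-intron and exon-exon circRNAs, with the number of circRNAs above each bar. At 3 to 4 reads the intergenic bar stands at 30.4% and the exon-exon bar at 45.8%, and from 10 reads on the classes meet near the top.

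The reads behind single intergenic circRNAs were few. Their median was 3 reads over the 6 libraries, against 4 for both exon-exon and intron-intron circRNAs. Their mean was 8.63, against 15.2 for exon-exon circRNAs and a like 8.56 for intron-intron circRNAs. Of the 528, 367 (69.5%) had 4 reads or fewer, as did 50.4% of exon-exon and 58.9% of intron-intron circRNAs. The 5 intergenic circRNAs of most reads, the top 1% of the class, held 30.6% of its reads, and the top 1% of exon-exon circRNAs, 72 of them, held 24.2% of theirs.

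Spans of intergenic circRNAs were shorter at the median than those of exon-exon circRNAs, and a larger percentage of them reached 100000 bases or more. The span, end minus start on the contig, had a median of 749 bases (quartiles 406 and 5938.5), against 887 for intron-intron and 1260 for exon-exon circRNAs. Spans under 1000 bases made up 302 of the 528 (57.2%), against 42.7% of exon-exon and 54.0% of intron-intron circRNAs. Spans of 100000 bases or more were found for 38 (7.20%), against 1.44% of exon-exon and 1.31% of intron-intron circRNAs. No test was made of these shares. The median span per library was 734, 734 and 653 bases in females and 788.5, 803 and 721 in males, against 1155.5, 1202.5 and 1141 for exon-exon circRNAs in females and 1277, 1155 and 1203 in males. Intergenic medians were lower by 450 ± 54.2 bases on average, in 6 of 6 libraries (exact sign-flip permutation test, two-sided, p = 0.031, the smallest possible). For circRNAs with at least 5 reads in the library the difference was -273 bases (exact permutation p = 0.031). For intergenic circRNAs the span bounds the circle from above, since any introns inside it are unknown without an annotated gene.

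**Figure D4:**
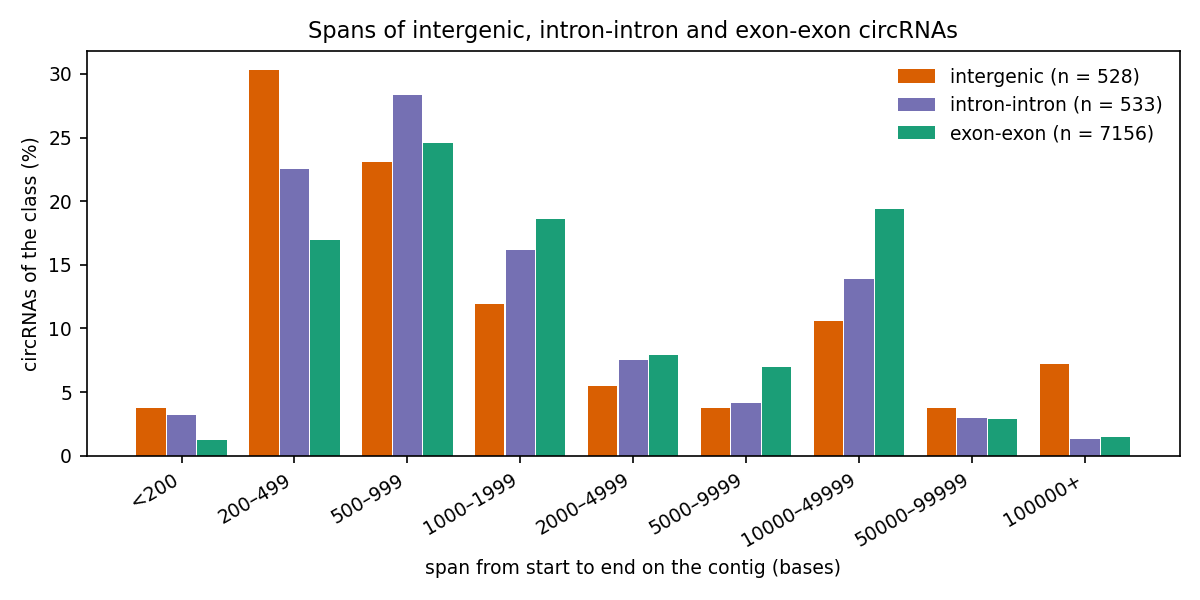
Percent of circRNAs of each class (y axis) by span in bases (x axis, classes of unequal width) for intergenic, intron-intron and exon-exon circRNAs. Intergenic circRNAs peak from 200 to under 500 bases (30.3% against 16.96% of exon-exon circRNAs) and stand at 7.20% at 100000 bases or more, against 1.44% of exon-exon circRNAs.

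The shortest and longest spans rested on very few reads. A span of 30 bases on NW_021837489.1 (39055977 to 39056007, minus strand) had 2 reads in male replicate 2. One of 48 bases on NW_021837045.1 (39646837 to 39646885, minus strand) had 2 reads in female replicate 2. At the other end, a span of 559293 bases on NW_021837822.1 (31553534 to 32112827, plus strand) had 3 reads in male replicate 2. The span of 531154 bases on NW_021838909.1 (26578285 to 27109439, minus strand) had 1 read in female replicate 2 and 2 and 1 reads in male replicates 1 and 2. Of the 38 spans of 100000 bases or more, 30 were seen in 1 library, with a median of 2.5 reads and a maximum of 33. Spans from 200 to under 500 bases, by contrast, held 41.3% of all intergenic reads, including those of the 3 circRNAs of most reads.

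Some circRNAs called intergenic lie over a gene on the other strand. Host gene coordinates are given in the table for 3875 genes, and 49 intergenic circRNAs (9.28%) lie wholly inside 1 or more of these genes. All 49 are on the opposite strand, over 46 genes. This follows from the class, whose ends meet no annotated gene on their own strand. These 49 circRNAs are rare, with 151 reads in all and at most 9 reads each. Of them, 41 (83.7%) were seen in 1 library, against 61.4% of the other intergenic circRNAs. None passed the filter for the sex test.

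For 32 intergenic circRNAs the table lists the same start and end on the opposite strand as a circRNA of a host gene, 30 of them exon-exon and 2 intron-intron. The intergenic members of these pairs had 90 reads and their counterparts 4987, a ratio of 1.80%. Per library the ratio was 1.92%, 3.03% and 1.48% in females and 1.86%, 2.102% and 0.82% in males. In 31 of the 32 pairs the intergenic circRNA had fewer reads. Exon-exon circRNAs with 100 reads or more had such a counterpart in 11 of 171 cases (6.43%), and those with fewer reads in 19 of 6985 (0.272%). The library kit is directional, per the labels' protocols, but whether the counting used strand is not given in the sources used here, so reads of the 2 strands at these positions cannot be told apart with certainty.

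Several of the counterparts belong to abundant circRNAs. The pair at tyrosine-protein phosphatase non-receptor type 21 (LOC109416253), which removes phosphate from tyrosines, had 2 intergenic reads, both in female replicate 2, against 915 reads on the gene's strand. At acyl-CoA Delta(11) desaturase-like (LOC109412434), an enzyme type that puts double bonds into fatty acids, the intergenic circRNA had 2 reads, both in female replicate 1, against 639. At RNA exonuclease 1 homolog (LOC109431460; NW_021837156.1, 56098347 to 56098626) the intergenic circRNA on the minus strand had 0 reads in each female library and 2, 3 and 1 reads in the male ones. Its counterpart on the plus strand had 13, 12 and 12 reads in females and 111, 122 and 110 in males, so both strands had most of their reads in males. This was the only pair whose intergenic circRNA was seen in 3 libraries.

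A pair at protein argonaute-2-like (LOC109424480), named for an enzyme that cuts target RNA in small interfering RNA defence against viruses, had 7 intergenic reads, all in male replicate 1. The gene's strand had 4, 4 and 8 reads in females and 9, 7 and 10 in males. At the igLON family member 5-like gene (LOC109404744), named for a family of neuronal adhesion proteins, the intergenic circRNA had 7 reads, all in male replicate 2, against 0, 1 and 0 in females and 2, 0 and 1 in males on the gene's strand. This was the 1 pair with more reads on the intergenic side.

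The authors assigned a gene to 26 of the intergenic circRNAs although their ends lie outside it, and 25 of these spans hold the whole gene. The assigned genes, 19 in all, were protein-coding for 18 circRNAs, long non-coding for 5 and transfer RNA genes for 2, and 1 had no coordinates. The spans ran from 661 to 531154 bases, and the spliced length the authors give, 72 to 3501 bases with a median of 1131, was far shorter in most. Among the enclosed genes were protein Wnt-1-like (LOC109427891), of a family of secreted signals, inside 246442 bases with 2 reads, and protein escargot-like (LOC115269848), a zinc finger transcription factor that maintains stem cells in flies, inside 418074 bases with 3 reads. Such circRNAs held 120 reads in all, and 18 of the 26 were seen in 1 library. The enclosed gene with most reads in 1 span was the uncharacterized LOC115270914, whose circRNA from 6587175 to 6624555 on NW_021838577.1 had 0, 8 and 0 reads in females and 6, 9 and 7 in males. The ataxin-8-like gene (LOC115256016) lies inside a span of 661 bases with 12, 0 and 2 reads in females and 4, 2 and 1 in males, so that 12 of its 21 reads came from female replicate 1.

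Away from listed host genes, intergenic circRNAs were mostly distant from them. On contigs that list a host gene, 392 intergenic circRNAs overlapped none, at a median distance of 191480 bases to the nearest (quartiles 54432 and 484980). Within 1000 bases there were 9 and within 10000 bases 40, and 254 were over 100000 bases away. Genes without a circRNA are not in the table, so the nearest annotated gene may be closer. A further 55 were on contigs with no listed host gene. Contigs that list intergenic circRNAs only numbered 48, with 53 circRNAs and 420 reads.

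Intergenic circRNAs lay on 162 of the 544 contigs with any circRNA, split evenly between strands (267 plus, 261 minus). A single one was listed on 107 contigs, 55 contigs held 2 or more, and 18 contigs with 10 or more held 293. The contigs with most intergenic circRNAs also listed many other circRNAs, 310 to 880 on the 4 named next. Over all 544 contigs the numbers of intergenic and other circRNAs had a Spearman correlation of 0.14, a description only, since contigs differ in length. NW_021838153.1 held 33 intergenic circRNAs beside 880 others (3.61%), with spans of 222 to 124314 bases and at most 55 reads. NW_021837045.1 held 31 beside 524 (5.59%), with spans of 48 to 334713 bases and at most 84 reads. NW_021838576.1 held 23 beside 411 (5.30%), with at most 33 reads, and NW_021838798.1 as many beside 310 (6.91%). Between 66.7% and 73.9% of the intergenic circRNAs on the first 3 of these contigs were seen in 1 library. Some shorter lists had a higher intergenic part: 11 intergenic beside 24 other circRNAs on NW_021838577.1 (31.4%), 10 beside 24 on NW_021838710.1 (29.4%) and 12 beside 48 on NW_021838499.1.

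Those contigs hold loci at which intergenic circRNAs share ends. Joined where their spans overlap on the same contig and strand, the 528 formed 458 loci, of which 422 held 1 circRNA and 36 held several, 106 circRNAs in all. An end shared with another circRNA was found for 92 intergenic circRNAs. For 82 of these every such partner was intergenic too, and for 10 a partner had an end in an exon. In 9 cases another circRNA lay within 10 bases at both ends, such as the 3 on NW_021838909.1 that start at 79286998 and end at 79287438, 79287443 and 79287448, with 29, 10 and 3 reads.

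The locus on the minus strand of NW_021838721.1 (3921523 to 4169353) held 8 circRNAs that used 5 starts and 7 ends, with 105 female and 231 male reads. Its 2268-base circRNA, described above, held 73 of the female and 178 of the male reads. The same start, 4063927, also opened spans of 100978 bases (4, 0 and 0 reads in females, 1, 0 and 1 in males) and 105426 bases (0, 6 and 8 reads in females, 6, 5 and 8 in males). A circRNA of 19890 bases at the other side of the locus (3921523 to 3941413) had 9, 1 and 0 reads in females and 4, 6 and 14 in males. The circRNA with the 2268-base span thus had far more reads than those of longer span that share its start.

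On the plus strand of NW_021838499.1 (7358831 to 7693593), 8 circRNAs used 4 starts and 5 ends, with 52 female and 67 male reads. The start at 7358831 was joined by 3 ends, giving spans of 336, 76630 and 104306 bases. The end at 7463137 was joined by 3 starts. The 3091-base circRNA named above held 36 reads in each sex, and its start also served a span of 37704 bases with 0, 3 and 5 reads in females and 2, 7 and 2 in males. Summed over the locus, the log2 fold change was 0.28 (SE 0.44, edgeR adjusted p = 0.793).

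The next locus, on the plus strand of NW_021838710.1 (5258876 to 5417682), held 7 circRNAs with 4 starts and 4 ends, and 11 female against 50 male reads. Its 327-base circRNA (5395131 to 5395458) had 2, 0 and 1 reads in females and 7, 2 and 13 in males. A second, of 20172 bases (5334004 to 5354176), had 1, 0 and 0 reads in females and 3, 4 and 5 in males, and a 534-base circRNA with the same start had 0, 2 and 1 in females and 0, 1 and 7 in males. A span of 61454 bases went the other way in raw reads, with 4, 0 and 0 in females and 1, 0 and 0 in males. The locus sum missed the threshold (log2 fold change -1.50, SE 0.74, edgeR adjusted p = 0.259).

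**Figure D5:**
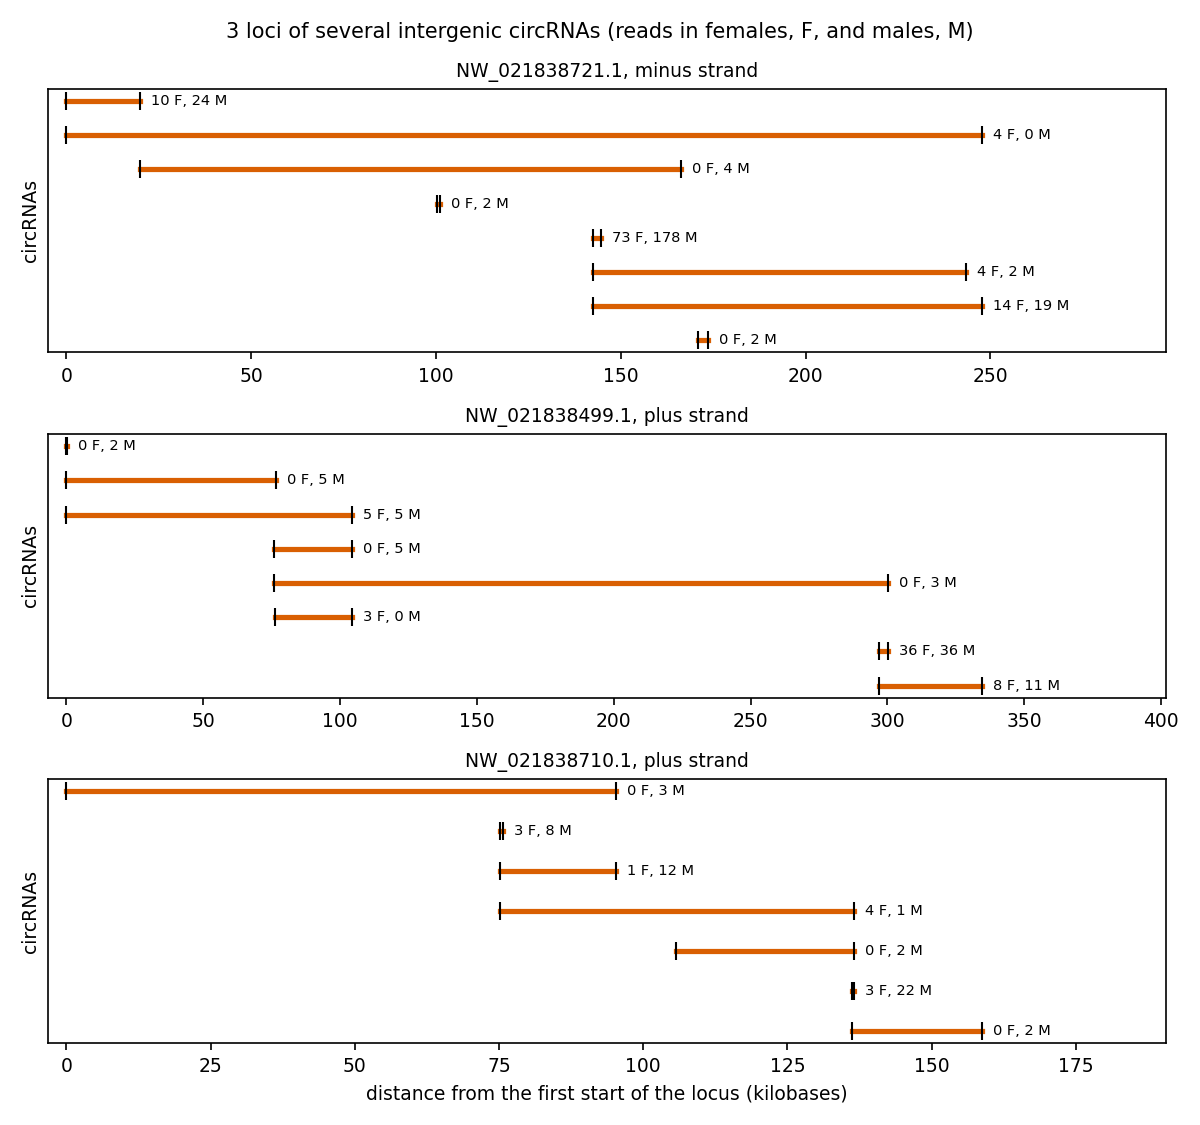
The 2 loci of 8 intergenic circRNAs and, of the 3 loci with 7, the one of most reads. Each bar runs from the start to the end of 1 circRNA, in kilobases from the first start of the locus (x axis), with its reads summed over the 3 female (F) and 3 male (M) libraries beside it. Starts and ends line up between circRNAs, and in the upper 2 panels most reads belong to 1 circRNA of short span (73 F, 178 M and 36 F, 36 M).

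At the locus of LOC115270914 on NW_021838577.1 (6582640 to 6624555, plus strand), 7 circRNAs used 5 starts and 3 ends, and 6 of them enclose the gene. They had 14 female and 45 male reads. On the minus strand of NW_021838399.1 (7834761 to 8276726), 7 circRNAs had 20 female and 40 male reads. Of these, the span of 44224 bases (7981822 to 8026046) had 7, 1 and 4 reads in females and 4, 14 and 11 in males, and 3 longer spans enclose the uncharacterized gene LOC115266903. Another circRNA of this contig, outside the locus (8300800 to 8302438, minus strand), had 10, 10 and 3 reads in females and 1, 1 and 7 in males. It was not tested, and male replicate 3 overlaps the females.

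Summed over loci of all junction types, 818 loci were tested, of which 20 held intergenic circRNAs alone. Among all of them 5.75% were called, 2.93% as higher in females and 2.81% as higher in males. Of the 20 intergenic loci, 0 were called for females and 1 for males, the locus of the leading circRNA on NW_021838925.1 (log2 fold change -1.51, SE 0.27, edgeR adjusted p = 0.000409). Scaling by DESeq2 size factors gave the same 0 and 1, and without female replicate 1 the counts were 0 and 3. The share of all loci called without female replicate 1 is not given here. At an unadjusted p under 0.05 there were 0 intergenic loci higher in females and 5 higher in males, against 9.9% of all 818 loci in each direction, the other 4 being those on NW_021838949.1, NW_021838153.1, NW_021839130.1 and NW_021838840.1. These 4 met the minimum count in all male libraries but not in all female ones. Their entry into the test thus rested on the sex with the higher level, and the 20 loci do not stand for the class. Loci that also hold circRNAs of a host gene, such as those on NW_021838721.1 and NW_021838577.1, were not counted as intergenic.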

How the data were processed

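Per the labels' protocols, total RNA was depleted of ribosomal RNA, digested with RNase R and made into directional libraries for paired reads on a HiSeq X10. Bowtie2 2.1.0 is named in the submitters' processing notes. For the circRNA caller, genome build and annotation, the entry is: not given in the sources used here. Junction reads per circRNA were deposited as raw counts, whole numbers without normalisation, per the file headers and values. Its 30393 lines repeat a circRNA for each protein of its host gene and were collapsed. The authors' spliced length is in bases. The deposited CPM table, scaled by TMM by the authors as its name says, holds 764 circRNAs, 22 of them intergenic. With 1 factor per library, 100% of its values gave whole reads equal to the deposited counts (tolerance 0.01 reads), so the count test needed no second run, and with library totals implied by the factors it called 0 intergenic circRNAs for females and 1 for males.

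The sex test used edgeR 4.0.16 (R 4.3.3): library sizes of all junction reads, TMM, filterByExpr with a minimum count of 5 and total of 15, the quasi-likelihood F test of sex, Benjamini-Hochberg adjustment over all circRNAs (or loci) tested and a threshold of 0.05. Standard errors were derived as |log2 fold change| divided by the root of F. The test was checked on simulated data. Alternatives used DESeq2 1.42.0 and other scalings, filters and samples. Junction reads carry no molecular identifiers, so floors cover counting error only, and that in the sex without reads. Groups and replicate numbers came from sample titles. The design calls the pools biological replicates, and replicates of 1 sex varied beyond sampling noise, with chi-square values of 2.17 to 3.30 per degree of freedom. Permutation tests were exact. Figures used matplotlib 3.10.9 in Python 3.11.15. The circRNAs, lists and tests were chosen with earlier results of these data known. Named circRNAs were those called, the 10 of most reads, the 10 of smallest p, the 3 of most reads per sex without a read in the other sex and in 2 or more libraries, the 2 longest and 2 shortest, and those of the 3 contigs and 3 loci with most (ties in loci by reads, in contigs by name). The circRNAs on NW_021837290.1 and at 72348765 on NW_021838687.1, pairs on opposite strands, enclosed genes and the further loci were chosen after their values were seen.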

Additional observations from a re-analysis of the deposited data

How the results depend on the processing

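No alternative changed the direction or the call of the NW_021838925.1 circRNA: DESeq2 size factors, the DESeq2 test, no filter on low counts, a stricter filter, implied library totals, the replicate block and each library left out. The count of intergenic circRNAs called higher in males was 1 to 3 with 1 library left out, and that of loci likewise 1 to 3. The counts of 3 came without female replicate 1, and the shares of all circRNAs and loci called without it are not given here. For females the count of intergenic calls was 0 in all fits. Same-numbered libraries of the sexes did not deviate together (correlations -0.02 to 0.02), so the numbers do not pair them, and with the replicate block 0 intergenic circRNAs were called higher in females and 1 in males. The thinned difference in numbers ran from -5.27 to 2.22 with 1 library left out, turning to 1.69 without female replicate 2 and to 2.22 without male replicate 1. With 5 libraries the exact sign-flip permutation tests cannot go below p = 0.0625. The median span difference ran from -469.7 to -442.4 bases and the recurrence difference from -23.1 to -20.3 points, and at 5 or more reads in the library the recurrence difference was -4.99. Among the 16 named circRNAs with a test, the log2 fold changes of 3 changed sign, and the other tested circRNAs were not examined in this way. That on NW_021838154.1 was -0.19 without a filter, -0.11 without female replicate 1 and -0.042 without male replicate 3 (-0.11 to 0.41 over the fits with 1 library left out). On NW_021838532.1 it was -0.21 without a filter and -0.017 without male replicate 3. The 105426-base circRNA on NW_021838721.1 (0.25 with all libraries) gave -0.035 without a filter, -0.033 with the block and -0.48 without female replicate 3 (-0.48 to 0.84 over the fits with 1 library left out). The causes were not tested. Without circRNAs over a gene on the opposite strand, an alternative chosen after seeing the data like that without the called circRNA, the read share differed by -0.79 points. Over all circRNAs tested, 28 were called higher in females and 21 in males, and without a filter 3 and 19. Without male replicate 1 the counts were 14 and 8, and without male replicate 2 they were 16 and 9.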
